A study of Mus musculus with 6 samples.

Results

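The genes described here are 9 genes that bring fatty acids into fat cells or set the activity of lipoprotein lipase: *Lpl*, *Gpihbp1*, *Angptl4*, *Cd36*, *Slc27a1*, *Slc27a4*, *Fabp4*, *Acsl1* and *Vldlr*. They were picked by name for their role, with no threshold on their values, and all 9 were present among the 19790 genes of the read count table. The tissue was gonadal white fat (gWAT), which lies along the epididymis, taken from Wild-type C57BL/6 males after 8 weeks on a normal chow diet (NCD, 3 libraries) or a high-fat diet (HFD, 3 libraries). The labels give an age of 6 weeks at the start of feeding, and the methods of the study give an older one. Whole tissue was sequenced, so each library holds RNA of adipocytes together with that of vessels, immune cells and stroma. The comparison asks how this gene set differed in gWAT between the diets.

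Triglyceride travels in blood as part of lipoprotein particles and must be hydrolysed before a fat cell can take it up. Lipoprotein lipase (LPL) does this in the capillary lumen: adipocytes secrete the enzyme, and GPIHBP1 on endothelial cells carries it across and holds it there. ANGPTL4, a secreted protein of fasted fat, inactivates LPL, and ANGPTL8, made in fed fat, works with other members of its family to steer LPL activity between tissues. The released fatty acids enter through CD36 and the fatty acid transport proteins (the SLC27A family), are bound in the cytosol by FABP4, and are trapped as acyl-CoA by long-chain acyl-CoA synthetases such as ACSL1. VLDLR binds triglyceride-rich particles and brings them close to the lipase.

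The libraries held 49575113 to 66360046 counts each, and the counts of the 9 genes ran from 571 to 908983 per library. Adipocyte marker genes took 0.234% to 2.48% of counts. In the NCD libraries 58.6%, 11.2% and 2.30% of counts (replicates 1, 2 and 3) came from 11 secretory genes of the seminal vesicle, a gland that lies against this fat pad, and at most 1.21e-05% did so on HFD. NCD replicate 1 therefore stood apart, and its epithelial and smooth muscle markers were also raised (summed 1828 and 6724 against at most 204 and 808 in the other libraries, in the unit defined next). Levels are given as TMM-scaled CPM, the usual CPM share of a library's counts scaled by the trimmed mean of M-values, which sets aside the most divergent genes when libraries are brought to one scale; the factor of NCD replicate 1 was 0.496 and the others lay between 1.02 and 1.27. Fitted fold changes of the members are therefore given with and without NCD replicate 1. Leaving it out does not free the comparison of admixed RNA, since NCD replicates 2 and 3 held more of it than any HFD library. In that fit all 11 secretory genes were still called lower on HFD. In bulk tissue, fewer cells of a type and less RNA per cell cannot be told apart. The study describes its RNA-seq points as biological replicates, and the labels name no individual animals.

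Of the 9 genes, 1 rose on HFD (*Angptl4*), 1 fell (*Slc27a4*) and 7 did not pass the test (edgeR quasi-likelihood test, Benjamini-Hochberg adjusted p under 0.05 over 15241 genes). Among all genes tested 7.47% passed, 5.58% as higher and 1.90% as lower on HFD. Without NCD replicate 1 the same 2 genes passed, where 20.9% of 15510 genes did, 10.7% as higher and 10.1% as lower. In TMM-scaled CPM the diets did not overlap for 2 of the 9 genes, against 39.2% of all genes. Without NCD replicate 1 they did not overlap for 4 of 9 (*Lpl*, *Acsl1*, *Angptl4* and *Slc27a4*), against 57.1% of all genes. Without that library the members' share of calls is close to the background, and with 9 genes nothing particular to them is read from either count. The median log2 fold change of the 9 was 0.27, beside -0.08 over all genes. Without NCD replicate 1 it was -0.17, beside 0.02.

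**Figure D1:**
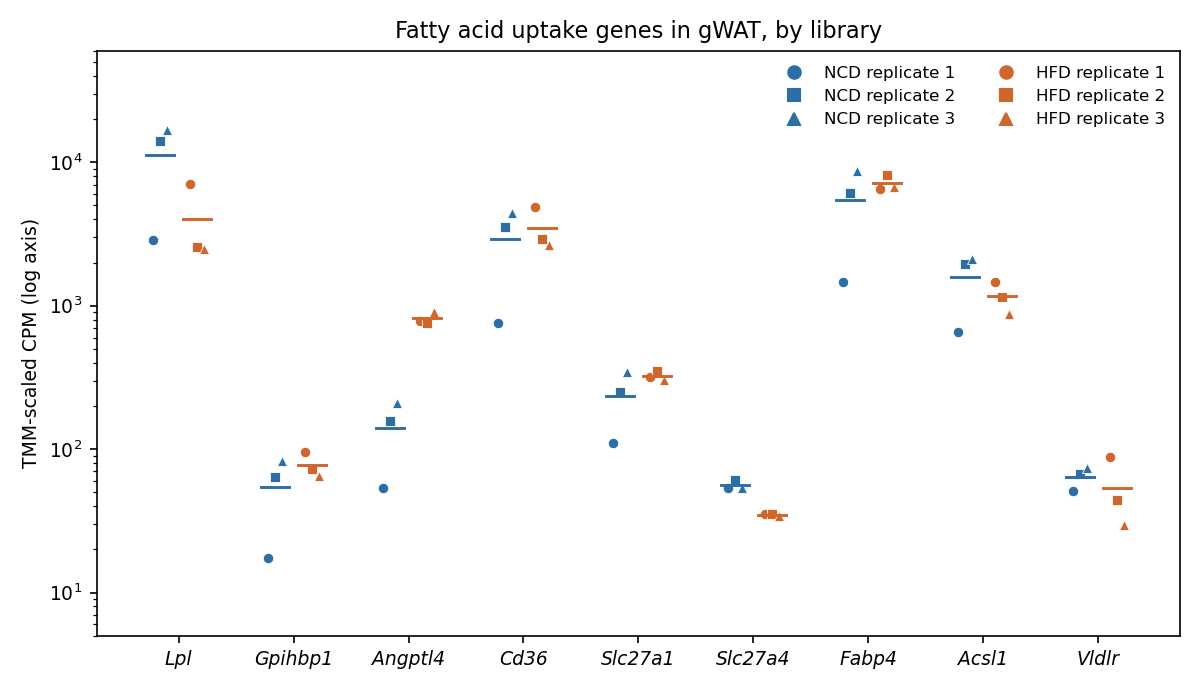
TMM-scaled CPM (log axis) of the 9 genes in each of the 6 gWAT libraries, with circles, squares and triangles for replicates 1, 2 and 3, NCD in blue and HFD in orange, and a bar at the mean of each diet. *Angptl4* lies between 757 and 907 on HFD and between 53.8 and 211 on NCD, *Slc27a4* lies lower on HFD in every library, and NCD replicate 1 is the lowest NCD library for each gene except *Slc27a4*.

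*Angptl4*, the LPL inhibitor (NCBI gene 57875; chr17:33774900-33781575, build GRCm38), gave the largest change of the 9. In the order of replicates 1, 2 and 3, kept throughout, TMM-scaled CPM was 53.8, 156 and 211 on NCD and 789, 757 and 907 on HFD. Every HFD library stood well above every NCD library. The means were 140 ± 79.9 on NCD and 818 ± 78.7 on HFD (SD, n = 3 each), and the edgeR log2 fold change was 2.54 ± 0.515 (± SE here and below; 5.82-fold, adjusted p = 0.0425). When NCD replicate 1 was dropped it was 2.17 ± 0.225 (4.49-fold, adjusted p = 0.00667). The call was lost when any other single library was left out (NCD replicate 2 or 3, or HFD replicate 1, 2 or 3), with adjusted p between 0.0711 and 0.147 and log2 fold changes of 2.47 to 2.97. In those fits, in that order, only 2, 2, 2, 7 and 4 of all genes tested passed. A call lost there, for *Angptl4* or a gene below, is therefore not particular to that gene. The *Angptl4* call also fell just short with no filter on low counts (adjusted p = 0.0514) and with total counts in place of TMM factors (0.06002).

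*Angptl8* (NCBI gene 624219), listed beside the members among the partners of LPL, had levels of 8.37, 78.9 and 101.8 TMM-scaled CPM on NCD. On HFD they were 2.96, 2.22 and 3.40. On this scale the highest HFD library was below the lowest NCD library, and NCD replicate 1 lay far below the other NCD libraries. *Angptl8* fell on HFD with a log2 fold change of -4.46 ± 0.913 (22.1-fold lower, adjusted p = 0.0429), and without NCD replicate 1 the value was -4.97 ± 0.236 (adjusted p = 0.00380). Leaving out any other library ended the call (adjusted p 0.0830 to 0.163), as did omitting the filter (0.0511). The gene lies inside *Dock6* on the opposite strand with no shared exon, and no source used here says whether strand was used in counting. *Dock6* itself had a log2 fold change of 0.62 (adjusted p = 0.179), and the part of its reads in the *Angptl8* values was not tested. Within a library, *Angptl4* counts were 6.43, 1.98 and 2.07 times those of *Angptl8* on NCD, and 266, 342 and 267 times on HFD, a ratio chosen after its values were seen. This ratio ignores exon length, which is 3308 bases for *Angptl4* and 865 for *Angptl8*. Divided by exon length and library total, without TMM factors, *Angptl8* was at 4.79, 93.2 and 126 on NCD and 3.96, 3.22 and 4.97 on HFD. HFD replicate 3 then lay above NCD replicate 1, so the diets overlapped. *Angptl4* was at 8.06, 48.2 and 68.4 on NCD and 276, 288 and 347 on HFD. Per length *Angptl8* was thus the higher in NCD replicates 2 and 3, and the lower in every HFD library.

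*Lpl* itself (NCBI gene 16956; chr8:68880555-68906932), one of the most abundant of the set, did not pass the test. It stood at 2867, 14178 and 16915 TMM-scaled CPM on NCD and at 7094, 2569 and 2475 on HFD. NCD replicate 1 fell among the HFD libraries, while the other NCD libraries lay above all of them. The log2 fold change was -1.48 ± 0.920 (adjusted p = 0.323) with all libraries and -1.93 ± 0.590 (adjusted p = 0.0703) without NCD replicate 1. With single libraries left out it ran from -2.16 (without HFD replicate 1) to -1.06 (without NCD replicate 3). Summed over 9 genes, adipocyte markers were 4715, 17072 and 23160 TMM-scaled CPM on NCD and 7512, 9505 and 6602 on HFD, and 0 of 9 passed the test with all libraries. Without *Cfd* and *Retn* the sums were 2584, 9611 and 12934 on NCD and 7002, 8184 and 5771 on HFD. Within NCD, marker sum and *Lpl* had the same order, with replicate 1 lowest and replicate 3 highest. Within HFD, replicate 2 had the highest marker sum and a low *Lpl* level. The part of adipocyte RNA in the *Lpl* values was not tested.

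*Gpihbp1*, the endothelial anchor of LPL, did not pass the test either. Its levels were 17.4, 63.4 and 82.5 TMM-scaled CPM on NCD and 95.0, 72.7 and 65.0 on HFD. The HFD range lay across the upper NCD values, and NCD replicate 1 alone was low. The log2 fold change was 0.51 ± 0.537 (adjusted p = 0.550), and 0.10 ± 0.207 (adjusted p = 0.754) without NCD replicate 1. The 10 endothelial markers summed to 328, 886 and 1018 TMM-scaled CPM on NCD and to 1273, 1083 and 1103 on HFD.

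Other genes known to mature, chaperone, carry or inhibit LPL formed a list with few calls. Of 17 LPL partners measured, 16 were tested, of which 0 rose and 1 (*Angptl8*) fell, with a median log2 fold change of 0.09 over members that lay far apart in both directions. Setting aside NCD replicate 1, 1 rose and 3 fell. The gene that rose was *Sdc1*, a heparan sulfate proteoglycan (log2 fold change 2.03 ± 0.467, adjusted p = 0.0343). Besides *Angptl8*, those that fell were *Sort1*, the sorting receptor sortilin (-0.97 ± 0.229, adjusted p = 0.0365), and *Apoc1*, an apolipoprotein that restrains LPL (-0.84 ± 0.133, adjusted p = 0.0140). With all libraries these 3 genes had adjusted p of 0.0585, 0.0656 and 0.564.

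**Figure D2:**
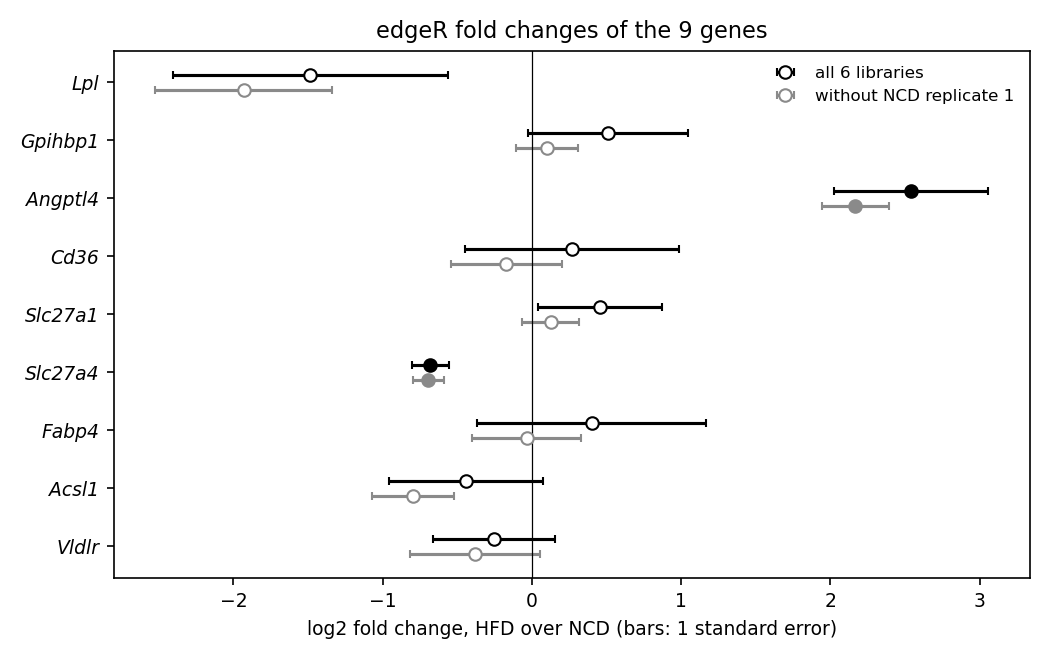
edgeR log2 fold change (HFD over NCD) of each of the 9 genes, with bars of 1 standard error, for all 6 libraries (black) and without NCD replicate 1 (grey), filled where the adjusted p is under 0.05. Only *Angptl4* (2.54 and 2.17) and *Slc27a4* (-0.68 and -0.69) are filled, and the points of *Cd36* and *Fabp4* change side when NCD replicate 1 is left out.

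Among the uptake genes *Slc27a4* fell on HFD. It encodes FATP4, a fatty acid transport protein that is also an acyl-CoA synthetase (NCBI gene 26569; chr2:29802634-29817522). Its levels were 53.8, 60.5 and 53.3 TMM-scaled CPM on NCD and 35.1, 35.3 and 34.1 on HFD. The diets did not overlap, and the libraries of each diet lay close together on this scale, NCD replicate 1 included. That library held the most seminal vesicle RNA and the lowest adipocyte marker sum. The part of admixed RNA in the *Slc27a4* values was not tested. The means were 55.9 ± 4.05 on NCD and 34.8 ± 0.643 on HFD (SD, n = 3 each), a log2 fold change of -0.68 ± 0.124 (1.60-fold lower, adjusted p = 0.0337). In the fit that omits NCD replicate 1 it was -0.69 ± 0.105 (adjusted p = 0.0124), whereas leaving out any of the other 5 libraries ended the call (adjusted p 0.0812 to 0.145). With total counts in place of TMM factors the value was -0.18 (adjusted p = 0.777) while the median of all genes moved to 0.445, so *Slc27a4* stood -0.63 from that median.

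*Cd36*, the scavenger receptor that takes up long-chain fatty acids, was at 764, 3528 and 4397 TMM-scaled CPM on NCD and 4861, 2933 and 2672 on HFD. The diets overlapped with and without NCD replicate 1. The log2 fold change was 0.27 ± 0.716 (adjusted p = 0.824) with all libraries and -0.17 ± 0.373 (adjusted p = 0.768) without NCD replicate 1, so no direction can be given. *Fabp4*, the adipocyte fatty acid binding protein, was at 1458, 6134 and 8697 on NCD and 6568, 8195 and 6738 on HFD. Its diets overlapped too. A log2 fold change of 0.40 ± 0.766 (adjusted p = 0.750) became -0.04 ± 0.368 (adjusted p = 0.955) without NCD replicate 1. *Slc27a1*, which encodes the insulin-responsive transporter FATP1, was at 109.5, 252 and 347 on NCD and 319, 350 and 302 on HFD. The HFD libraries fell between or just above the upper NCD libraries, with a log2 fold change of 0.46 ± 0.413 (adjusted p = 0.489), or 0.13 ± 0.189 (adjusted p = 0.664) without NCD replicate 1.

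The families of these genes gave few calls. In the SLC27A family, 4 members were tested with all libraries, and 0 rose and 1 (*Slc27a4*) fell. Among the 5 tested without NCD replicate 1, *Slc27a4* fell and *Slc27a3* rose (log2 fold change 1.38 ± 0.212, adjusted p = 0.0129). *Slc27a3* was low, at 3.59 to 8.07 TMM-scaled CPM on NCD against 9.05 to 11.4 on HFD. In the FABP family 0 of 5 tested members passed in either fit, and *Fabp5*, a form shared by adipocytes and macrophages, had a log2 fold change of 1.18 ± 0.496 (adjusted p = 0.177), or 0.84 ± 0.359 (adjusted p = 0.149) without NCD replicate 1. Its 88.8, 272 and 218 TMM-scaled CPM on NCD all lay below the 645, 300 and 362 on HFD. Of 6 genes for CD36 palmitoylation and traffic and for acyl-CoA binding, 0 passed with all libraries. *Scarb2*, a lysosomal relative of CD36, rose without NCD replicate 1 (0.49 ± 0.125, adjusted p = 0.0450), while *Zdhhc5*, which palmitoylates CD36 (-0.47 ± 0.115, adjusted p = 0.0394), and *Dbi*, the acyl-CoA binding protein (-1.02 ± 0.232, adjusted p = 0.0329), fell in that fit. Of 5 genes of endothelial fatty acid transport 0 passed, and *Vegfb*, a growth factor for vessels, fell without NCD replicate 1 (-1.19 ± 0.289, adjusted p = 0.0391).

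*Acsl1*, the main acyl-CoA synthetase of adipocytes, was at 655, 1956 and 2123 TMM-scaled CPM on NCD and 1463, 1150 and 873 on HFD. As with *Lpl*, NCD replicate 1 was low, here the lowest of all, and the other NCD libraries lay above the HFD libraries. The log2 fold change was -0.44 ± 0.517 (adjusted p = 0.593), and -0.80 ± 0.275 (adjusted p = 0.0926) without NCD replicate 1. Its relative *Acsl5*, a synthetase of mitochondria and endoplasmic reticulum, went the other way and rose from 76.6, 76.2 and 73.7 on NCD to 128.1, 122.8 and 123.7 on HFD. Its log2 fold change was 0.73 ± 0.125 (adjusted p = 0.0293) with all libraries and 0.75 ± 0.106 (adjusted p = 0.0107) without NCD replicate 1, and leaving out any other library ended the call (adjusted p 0.0819 to 0.118), as did total counts (0.0906). *Acsl5* was the sole gene of 5 tested in its family to pass with all libraries. *Acsl3* fell without NCD replicate 1 (-1.13 ± 0.284, adjusted p = 0.0427). Exons of *Acsl1* and *Acsl5* overlap genes on the other strand (*Gm45244* and *Zdhhc6*), whose reads could not be separated if strand was not used.

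*Vldlr* varied on HFD more than on NCD, with 51.3, 66.7 and 74.2 TMM-scaled CPM on NCD and 87.5, 44.0 and 29.5 on HFD. HFD replicate 1 was the highest library of all and HFD replicate 3 the lowest. The log2 fold change was -0.26 ± 0.409 (adjusted p = 0.702), or -0.38 ± 0.436 (adjusted p = 0.564) without NCD replicate 1. Among 11 lipoprotein receptors and their partners, 0 rose and 1 fell: *Sorl1*, a sorting receptor. It went from 114, 130 and 74.7 on NCD to 21.1, 27.0 and 38.9 on HFD (log2 fold change -1.87 ± 0.313, adjusted p = 0.0282). The *Sorl1* call held without NCD replicate 1 (adjusted p = 0.0200) and was lost without any other library (0.0706 to 0.114) and with total counts (0.106), and its exons overlap *Gm16214* on the other strand. With NCD replicate 1 left out, the receptor chaperone *Lrpap1* (-0.73 ± 0.184, adjusted p = 0.0431) also fell, and *Lrp1*, a large endocytic receptor, rose (1.11 ± 0.220, adjusted p = 0.0238).

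The nuclear receptors that control many of these genes did not pass with all libraries: 0 of 7 PPAR and RXR genes were called, with a median log2 fold change of -0.67. Without NCD replicate 1, 5 of 7 fell and 0 rose, in a fit where 10.1% of all genes fell and 10.7% rose. These were *Pparg*, the master regulator of fat cells (-1.11 ± 0.166, adjusted p = 0.0123), *Ppara* (-1.71 ± 0.316, adjusted p = 0.0196), *Rxra* (-0.87 ± 0.148, adjusted p = 0.0159), *Rxrg* (-1.02 ± 0.268, adjusted p = 0.0475) and the coactivator *Ppargc1a* (log2 fold change -1.999 ± 0.442, adjusted p = 0.0309). Without the same library, 5 of 9 adipocyte markers also fell, and the part of adipocyte RNA content in these values was not tested. *Angptl4*, a known target of PPAR receptors, rose in the same libraries, and a link between these changes was not tested.

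**Figure D3:**
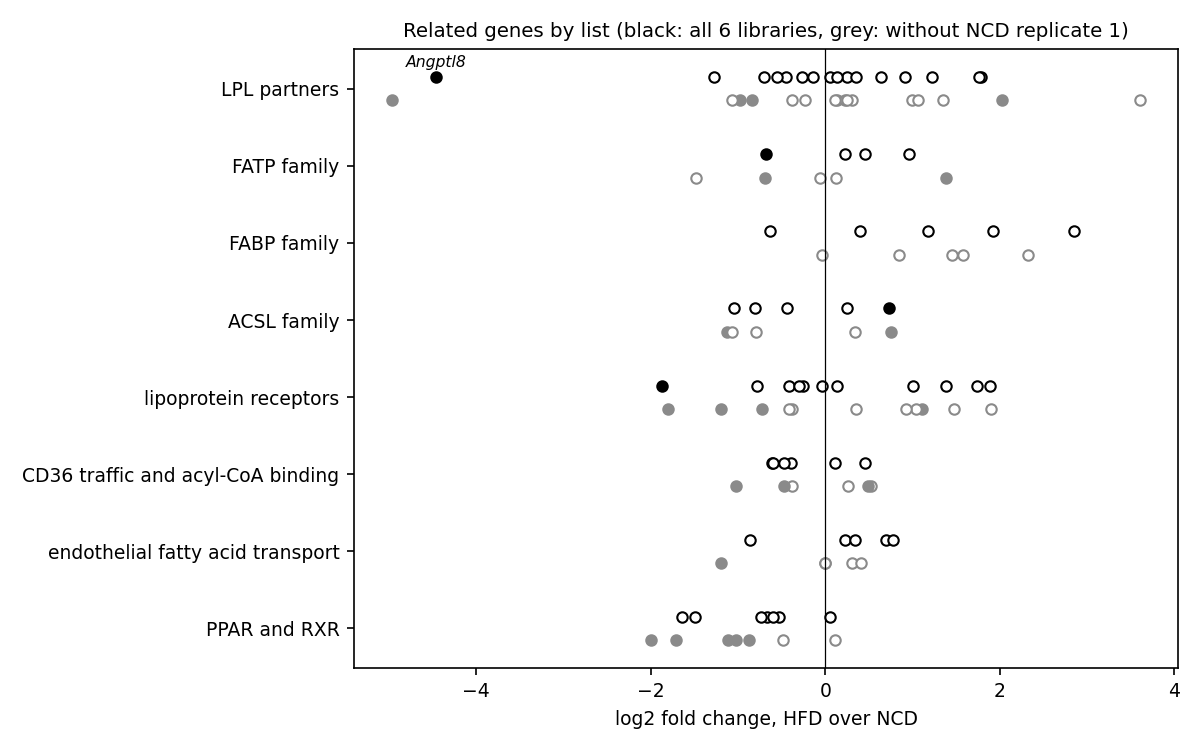
edgeR log2 fold change (HFD over NCD) of every tested gene of 8 lists, with all 6 libraries in black and without NCD replicate 1 in grey, filled where the adjusted p is under 0.05. *Angptl8* (-4.46 and -4.97) lies farthest to the left, and the PPAR and RXR list holds 0 filled black and 5 filled grey points.

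The promoters of the 2 genes of LPL control and uptake that fell are printed because they allow the sequence at those start sites to be read beside the values. They cover 250 bases before and 50 bases from the start of transcription (RefSeq, GRCm38.p6, both on the plus strand), and 5 of the 9 members had an entry. *Lpl*, *Fabp4*, *Gpihbp1* and *Angptl4* had none. Capitals mark the GC box GGGCGG. Searched on both strands were the GC box, the CCAAT box, the TATA box as TATAAA, the core letters of nuclear receptor sites as AGGTCA and the core of hypoxia sites as ACGTG.
*Slc27a4*, chr2:29802384-29802683: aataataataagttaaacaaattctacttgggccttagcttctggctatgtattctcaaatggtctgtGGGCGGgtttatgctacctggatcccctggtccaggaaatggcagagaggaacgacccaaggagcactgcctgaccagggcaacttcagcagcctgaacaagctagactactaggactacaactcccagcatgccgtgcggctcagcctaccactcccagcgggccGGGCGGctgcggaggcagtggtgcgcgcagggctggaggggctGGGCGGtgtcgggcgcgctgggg
*Angptl8*, chr9:21835260-21835559: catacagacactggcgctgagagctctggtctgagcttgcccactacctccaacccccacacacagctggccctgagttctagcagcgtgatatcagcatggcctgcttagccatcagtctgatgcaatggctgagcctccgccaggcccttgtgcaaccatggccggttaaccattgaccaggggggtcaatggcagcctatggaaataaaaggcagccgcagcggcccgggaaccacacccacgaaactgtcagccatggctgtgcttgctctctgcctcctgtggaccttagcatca
The *Slc27a4* window held 3 GC boxes, at -182 to -177, -16 to -11 and 28 to 33, counted from 1 at the start site, and none of the other motifs. The *Angptl8* window held 0 matches to the 5 motifs, which says only that these letters are not in this window. Of 32851 promoters of that length, 35.7% held the GC box, 37.4% the CCAAT box, 13.6% the TATA box, 16.3% the nuclear receptor core and 19.6% the hypoxia core.

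Levels of different genes were compared per length, as FPKM, counts divided by exon length and by the library's total. *Fabp4* was the highest of the 9 in every library, from 806 FPKM in NCD replicate 1 to 11497 in HFD replicate 2. *Lpl* came second in the 3 NCD libraries and in HFD replicate 1, and *Cd36* came second in HFD replicates 2 and 3. *Lpl* made up 25.1%, 28.8% and 26.0% of the summed FPKM of the 9 genes on NCD and 15.4%, 5.54% and 6.32% on HFD. These shares did not overlap and, being taken within a library, do not depend on scaling between libraries. *Angptl4* ranked next after *Slc27a1* in every NCD library and above it in every HFD library, with shares of 0.585%, 0.395% and 0.404% on NCD and 2.13%, 2.03% and 2.88% on HFD. The shares of *Slc27a1* were 1.39%, 0.743% and 0.773% on NCD and 1.00%, 1.09% and 1.12% on HFD. *Acsl1* came next after *Lpl* and *Cd36* in all libraries except HFD replicate 3, where *Angptl4* (347 FPKM) passed it (265 FPKM). The lowest places went to *Gpihbp1*, *Slc27a4* and *Vldlr*, and their order differed between libraries: *Vldlr* was the lowest in every library except HFD replicate 1.

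Ratios within a library were then compared, since they are free of the scaling that NCD replicate 1 disturbs. They are not free of RNA admixed from the seminal vesicle and its surroundings. In all, 32 ratios were tested by an exact two-sided permutation test, for which 3 against 3 cannot give a p below 0.1 (0.152 after Benjamini-Hochberg adjustment over the 32). *Angptl4* counts were 0.0188, 0.0110 and 0.0125 times those of *Lpl* on NCD and 0.111, 0.295 and 0.366 times on HFD. In whole tissue, RNA of the inhibitor thus stood higher against RNA of its enzyme in every HFD library. The mean log2 difference was 4.06 (16.7-fold, exact p = 0.1), or 4.29 without NCD replicate 1. *Gpihbp1* relative to *Lpl* went the same way, at 0.00606, 0.00447 and 0.00488 on NCD and 0.0134, 0.0283 and 0.0263 on HFD (mean log2 difference 2.08, exact p = 0.1, or 2.204 without that library). *Slc27a4* relative to *Slc27a1* was 0.491, 0.240 and 0.154 on NCD and 0.110, 0.101 and 0.113 on HFD (mean log2 difference -1.29, exact p = 0.1, or -0.83 without it). On NCD this ratio had the same order as the seminal vesicle share of counts (58.6%, 11.2% and 2.30%). The part of admixed RNA in the ratio was not tested. *Vldlr* to *Lpl* and *Fabp5* to *Fabp4* overlapped between the diets, with differences of 0.92 and 0.50 that were 1.58 and 0.79 without NCD replicate 1.

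**Figure D4:**
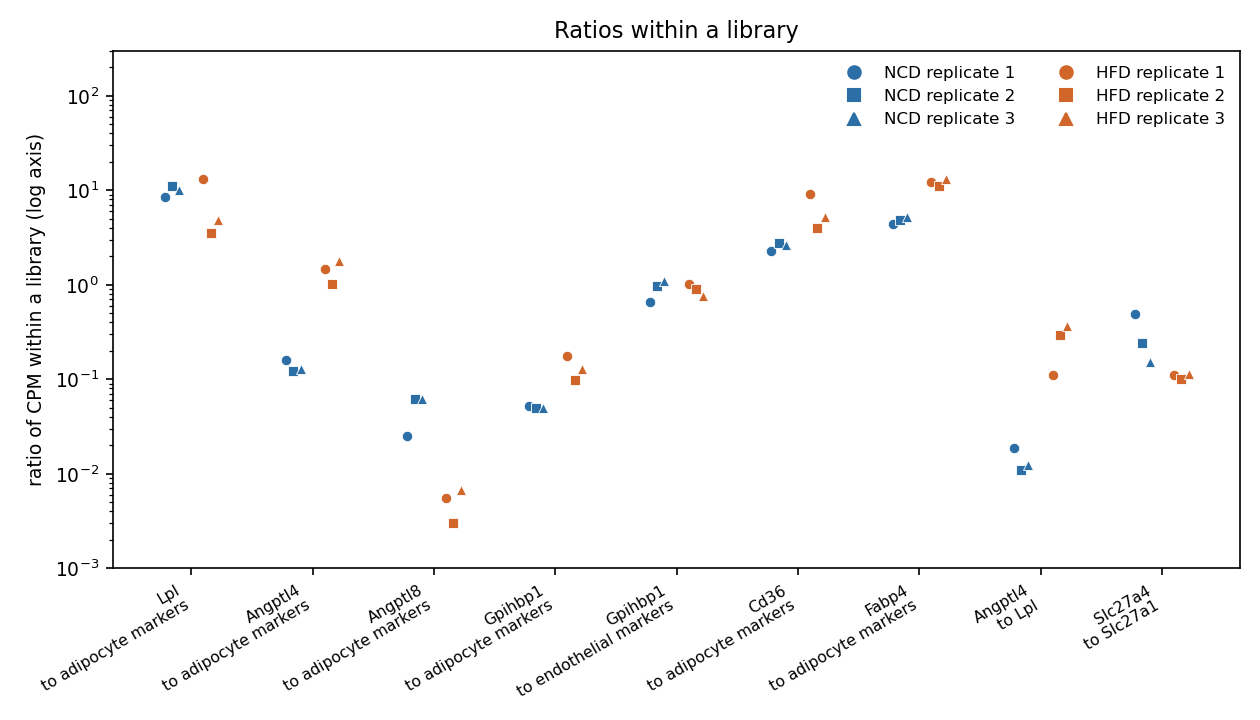
Ratio of a gene's CPM to that of another gene, or to the geometric mean CPM of a marker list, within each library (log axis), with NCD in blue and HFD in orange and symbols by replicate. *Angptl4* to adipocyte markers lies from 0.161 down to 0.1231 on NCD and between 1.03 and 1.79 on HFD, whereas *Lpl* to adipocyte markers and *Gpihbp1* to endothelial markers overlap between the diets.

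Set against the geometric mean of the 9 adipocyte markers in the same library, *Angptl4* was 0.161, 0.1231 and 0.127 on NCD and 1.48, 1.03 and 1.79 on HFD (mean log2 difference 3.36, exact p = 0.1, or 3.48 without NCD replicate 1). *Fabp4* on that scale was 4.38, 4.83 and 5.24 on NCD and 12.3, 11.2 and 13.3 on HFD, with no overlap and a spread within each diet far below the gap. *Cd36* (2.29, 2.78 and 2.65 against 9.12, 3.999 and 5.27), *Slc27a1* and *Gpihbp1* were higher in every HFD library as well. *Lpl* on the same scale overlapped, at 8.60, 11.2 and 10.2 on NCD and 13.3, 3.50 and 4.88 on HFD, as did *Slc27a4*, *Acsl1* and *Vldlr*. For *Slc27a4* the values were 0.161, 0.0477 and 0.0321 on NCD and 0.0659, 0.0481 and 0.0672 on HFD. NCD replicate 1 was thus its highest library, and NCD replicates 2 and 3 lay below every HFD library. In all, 5 of the 9 genes did not overlap against adipocyte markers, a scale on which 19.3% of all 15241 genes did not, and whose marker sums themselves differed between libraries. The adipocyte list holds *Cfd* and *Retn*, the markers that fell most on HFD. Without them 6 of 9 did not overlap, against 15.5% of all genes, the *Angptl4* difference was 2.83 in place of 3.36 on the log2 scale, and *Lpl* no longer overlapped (-1.23). The differences of *Fabp4*, *Cd36*, *Slc27a1* and *Gpihbp1* went from 1.35, 1.17, 1.21 and 1.38 to 0.82, 0.64, 0.68 and 0.84. The gaps were then narrow for *Cd36* (at most 3.44 on NCD, at least 3.65 on HFD) and *Slc27a1* (0.405 and 0.436).

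Against endothelial markers, *Gpihbp1* was 0.653, 0.973 and 1.10 on NCD and 1.01, 0.901 and 0.768 on HFD. The ranges overlapped, with a mean log2 difference of 0.0025 (exact p = 1.0), or -0.22 without NCD replicate 1. *Lpl* was lower against the same markers in every HFD library (mean log2 difference -2.08, exact p = 0.1, or -2.42 without NCD replicate 1). The shift of *Gpihbp1* relative to *Lpl* was thus of the size seen for the endothelial list as a whole. *Angptl4* was higher against endothelial markers in every HFD library (mean log2 difference 1.98, exact p = 0.1, or 1.86 without that library). On this scale 5 of the 9 genes did not overlap, near the 51.2% of all genes that did not. Macrophage markers moved strongly with diet: summed over 12 genes they were 606, 1347 and 1185 TMM-scaled CPM on NCD and 6260, 3474 and 4022 on HFD, and 8 of 12 rose. Against macrophage markers 89.6% of all genes did not overlap, and 88.8% were lower in every HFD library, so the 8 of 9 members that were lower are not a result about them. *Angptl4* overlapped on this scale, at 1.54, 2.24 and 3.82 on NCD and 1.91, 3.34 and 3.44 on HFD. The part of macrophage RNA in the *Angptl4* result was not tested.

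The genes whose pattern was most like each member were named by Pearson's r over the 6 libraries on log2(TMM-scaled CPM + 0.5), among 9894 genes with a mean of at least 10 TMM-scaled CPM. These r values describe shared variation over 2 diets and 1 divergent library, and carry no p. Among the 2 closest to *Angptl4* was *Plod1* (r = 0.998), which went from 49.1, 89.6 and 97.4 on NCD to 187.4, 204.0 and 213.7 on HFD. *Slc27a4* was closest to *Scd2* and *Lpcat3* (r = 0.997 and 0.996). *Scd2* stood at 982, 1517 and 1077 on NCD and 151, 145 and 109 on HFD, a much wider gap than that of *Slc27a4*. *Lpl* paired with *Sucla2* and *Rxylt1*, *Acsl1* with *Cav1* and *Rxrg*, and *Vldlr* with *Sparcl1* and *Ormdl3*. *Gpihbp1* was closest to *Afap1l1* and *Adgrl4*, *Cd36* to *Ttyh2* and *St3gal3*, *Fabp4* to *Hacl1* and *Ltbp3*, and *Slc27a1* to *F3* and *Pdzd2*. Over all 18 pairs r ran from 0.982 to 0.9995, and from 0.946 to 0.998 without NCD replicate 1.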

How the data were processed

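RNA of gWAT was sequenced after a TruSeq mRNA preparation. The authors deposited 1 table of read counts per gene. The submitters' processing notes name Trimmomatic, HISAT2 2.1.0, StringTie 1.3.4d and DESeq2 and builds mm10 and GRCm38; no source used here gives the counting step or its use of strand. Groups came from the labels. Deposited counts were tested with edgeR 4.0.16 (expression filter at 10 counts, TMM, quasi-likelihood F test, standard error as the absolute log2 fold change over the root of F), with Benjamini-Hochberg adjustment and a threshold of 0.05. The fit was also run on simulated counts with set fold changes and a shared mean profile. These held no library with admixed RNA, so they cannot show how the fit handles NCD replicate 1. FPKM used GRCm38 exon lengths, which 17794 genes had. Alternatives covered filters, scalings, DESeq2 1.42.0, limma 3.58.1 voom with quality weights, a replicate block and each library left out. The members, gene lists, tests and naming rule (members, list genes that passed, ratio partners, 2 closest genes by r) were chosen with earlier results of these data known. Gene IDs were matched to NCBI symbols for 19742 of 19790 genes. Some list genes and 1 gene close to a member are not reported here.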

Additional observations from a re-analysis of the deposited data

How the results depend on the processing

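The number of genes changed, 1139 (4524 at an unadjusted p under 0.05), was within 1.5 times under both other filters, the 3 other scalings and removal of seminal vesicle genes. It was 3904 with DESeq2, 5570 with limma voom, 12 with the replicate block and 529 with NCD replicate 3 alone, an alternative added after the data were seen. Leaving out NCD replicate 1 gave 3234 genes. Leaving out NCD replicate 2 or 3, or HFD replicate 1, 2 or 3, gave only 2, 2, 2, 7 and 4. The share called higher was 74.6%, against 55.1% with DESeq2, 50.7% with voom, 51.5% without NCD replicate 1 and 41.7% with the block. Members changed numbered 2, against 1 with no filter (*Slc27a4*), 0 with total counts only, 4 with voom, 0 with the block, 1 with NCD replicate 3 alone (*Angptl4*) and 0 to 2 with single libraries left out; voom added *Lpl* (-2.23, adjusted p = 0.00825) and *Acsl1* (adjusted p = 0.0453). The replicate numbers did not pair the libraries (same-number correlations -0.06, -0.04 and 0.0074, the last resting on the title of HFD replicate 3, whose column carries another number), and with the block *Angptl4* was at 2.74 (adjusted p = 0.0798) and *Slc27a4* at -0.68 (adjusted p = 0.0999). The direction of 5 members not called changed. With NCD replicate 3 alone, *Cd36* was -0.33, *Fabp4* -0.27, *Slc27a1* -0.094 and *Gpihbp1* -0.083. *Cd36* was -0.18 with voom, and *Vldlr* 0.16 with total counts, where the median gene was at 0.445. With single libraries left out, *Cd36* ran from -0.17 (without NCD replicate 1) to 0.71, *Fabp4* from -0.036 (without NCD replicate 1) to 0.93 and *Vldlr* from -0.79 to 0.052 (without HFD replicate 3). Likewise log2 ratios ran from -0.34 to 0.21 for *Fabp4* to endothelial, -0.56 to 0.61 for *Slc27a4* to adipocyte, -0.22 to 0.16 for *Gpihbp1* to endothelial, -0.062 to 0.59 for *Angptl4* to macrophage and -0.27 to 0.78 for *Vldlr* to adipocyte markers. Without *Cfd* and *Retn*, *Acsl1* to adipocyte markers was -0.22 and *Vldlr* -0.31. The cause of these moves was not tested. The lowest member count in a library was 571, and the part of depth in the spread between libraries was not tested.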
